A study of Mus musculus with 6 samples.

Results

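The expression of 10 genes of the Hippo pathway was compared between mouse embryonic stem cells (ESCs) and epiblast-like cells (EpiLCs). The genes are the TEAD transcription factors Tead1, Tead2, Tead3 and Tead4, the coactivators Yap1 and Wwtr1 (which encodes TAZ), the kinases Lats1 and Lats2, the motin Amotl2 and the TEAD cofactor Vgll4. They were taken by gene symbol from a table of 24736 genes, in which each has 1 row, and all 10 passed the filter on low counts that left 14468 genes for testing. The RNA-seq data comprise 6 libraries of polyadenylated RNA from WT cells of the HM1 TetON line, which is male (XY) and carries the rtTA transactivator at Rosa26 in both groups. The 3 ESC libraries (0 h) came from cells kept with 10% serum and 1000 U/ml LIF on mitotically inactivated mouse embryonic fibroblasts, and the 3 EpiLC libraries (48 h) from cells moved to serum-free N2B27 with 10 ng/ml bFGF and 5 µM LGK974, an inhibitor of WNT secretion. The fibroblast feeders were depleted by adhesion before differentiation. The study's culture methods give a longer time for EpiLCs than the labels do, while its results section describes EpiLC identity at 48 h, the labelled time. The labels name biological replicates of a single line, so the errors below describe the spread between cultures of that line, and medium, feeders and time all differ between the groups and cannot be told apart.

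In the Hippo pathway, the MST kinases (Stk3 and Stk4) with their scaffold SAV1 activate the LATS kinases with their MOB1 partners, and LATS phosphorylates YAP and TAZ, which are then held in the cytoplasm by 14-3-3 proteins or degraded. Unphosphorylated YAP and TAZ enter the nucleus and bind the TEAD factors, which contact DNA but activate little by themselves, while VGLL4 competes with YAP for TEAD. Motins and NF2 link the pathway to cell junctions. In the early mouse embryo TEAD4 with nuclear YAP is known for specifying the trophectoderm, and YAP with TEAD supports pluripotency gene expression in the epiblast. Transcript levels do not measure phosphorylation or the position of YAP and TAZ in the cell.

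Total expected counts, which are RSEM's estimates of the reads from each gene, ran from 16967741 to 28521848 in the ESC libraries and from 30683164 to 35096210 in the EpiLC libraries. Of 7 pluripotency markers 6 fell in EpiLCs and Pou5f1 did not pass the test, and 5 of 5 EpiLC markers rose, while 22.8% of all genes tested fell and 22.6% rose. Pou3f1 (OCT6), an EpiLC marker, went from 9.80 ± 1.49 to 172 ± 19.2 TPM (mean ± SD, n = 3). TPM is a transcript abundance corrected for transcript length and scaled to the same total in each library, so that levels of different genes can be compared. The ESC libraries differed in fibroblast genes: the summed TPM of 15 markers was 373, 1709 and 135 in ESC replicates 1, 2 and 3 and between 95.8 and 106 in the EpiLC libraries. All 15 were highest in ESC replicate 2, and 14 had the order 2, 1, 3 among the ESC libraries. Of the 13 that could be tested, 7 were lower in EpiLCs and 6 did not pass (53.8% lower, beside 22.8% of all genes tested), led by Col1a1, a fibrillar collagen, at 90.5, 489 and 28.3 TPM in ESCs and 6.63, 13.9 and 3.08 TPM in EpiLCs. With all 6 libraries no marker of this list rose with edgeR (0 of 13 also at an unadjusted p of 0.05, and 0 with DESeq2), whereas without ESC replicate 2 Thy1, a surface glycoprotein, rose (0.66, edgeR adjusted p = 0.0430) and 6 fell. Dcn, Lum, Postn and Fap, which also mark fibroblasts, stayed below 5 TPM in each library and Fap was at 0 in ESC replicate 1 and in the 3 EpiLC libraries. ESC replicate 2 was also the shallowest library. Results below are therefore given with and without it where it matters, and in these bulk samples fewer cells of a type and less RNA per cell cannot be told apart.

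Of the 10 genes, 2 rose in EpiLCs (Tead2 and Yap1), 5 fell (Tead1, Tead4, Wwtr1, Amotl2 and Vgll4) and 3 did not pass the test (Tead3, Lats1 and Lats2), at an adjusted p of at most 0.05 in edgeR's quasi-likelihood test. Among all genes tested 22.6% were higher and 22.8% lower, 45.4% in all. The median log2 fold change of the 10 was -0.69, beside -0.0017 over all genes tested. Of the genes that passed in edgeR, Tead1 and Tead4 differed by more than 1 on the log2 scale, and 20.2% of all tested genes both passed and exceeded that size. Lats2, at -1.09, exceeded it without passing in edgeR and passed with DESeq2. In 8 of the 10 genes the ESC and EpiLC libraries did not overlap, beside 59.3% of all tested genes, and the libraries overlapped for Lats1 and Lats2. Without ESC replicate 2, 3 rose and 5 fell, beside 24.3% and 24.5% of the genes tested in that fit.

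**Figure D1:**
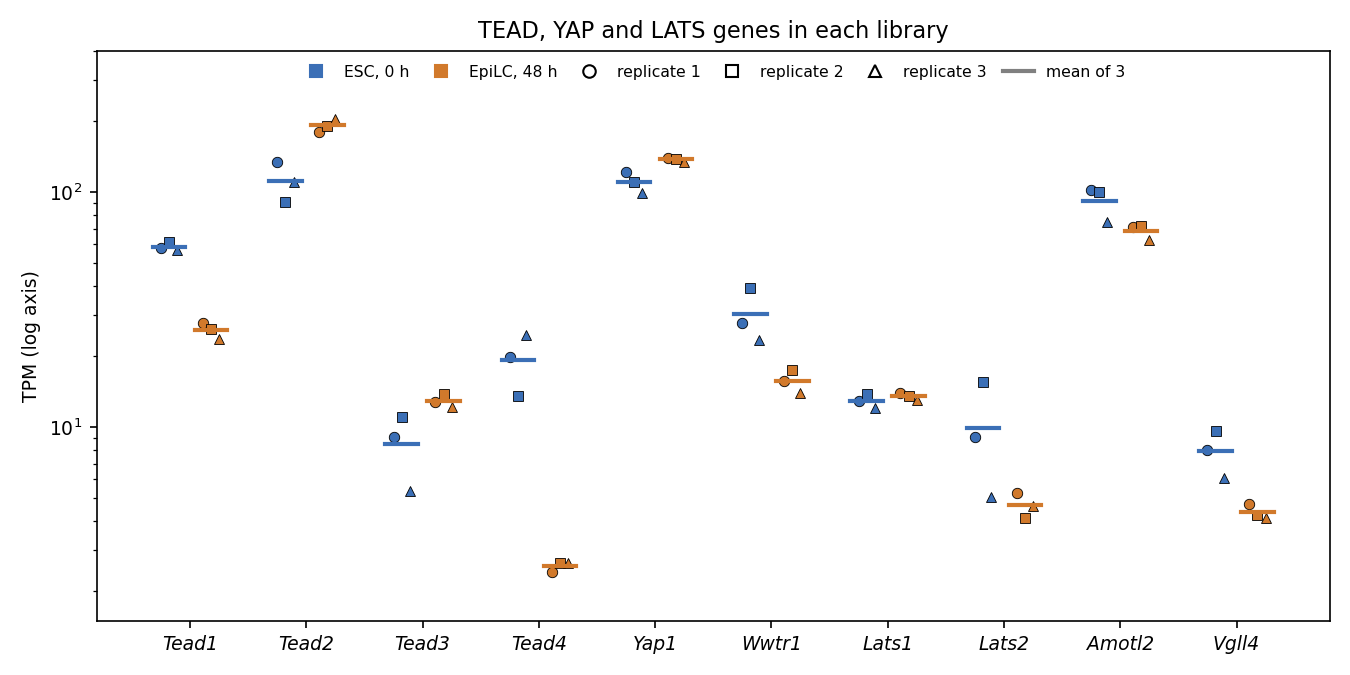
TPM (log axis) of the 10 genes in each library, with ESC (0 h) in blue, EpiLC (48 h) in orange, a symbol for each replicate and a bar at the mean of 3. Tead2 and Yap1 are above their ESC levels in all 3 EpiLC libraries, Tead4 lies between 2.41 and 2.65 TPM in EpiLCs, and Lats1 and Lats2 overlap between the groups.

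Tead2 (chr7:45215792-45233468, gene positions here and below on GRCm38.p6), the most abundant TEAD transcript in every library, rose. Its level was 135, 90.6 and 110 TPM in ESC replicates 1, 2 and 3 and 180, 192 and 205 TPM in EpiLC replicates 1, 2 and 3. ESC replicate 2 was the lowest of the 6 libraries and each EpiLC library was above each ESC library. The level increased 1.66-fold, with a log2 fold change of 0.73 (SE 0.14, edgeR adjusted p = 0.00610), and by 0.60 without ESC replicate 2 (edgeR adjusted p = 0.00429).

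Tead4 (chr6:128227143-128300813), the family member known for its part in trophectoderm, showed the largest difference of the 10. ESC libraries had 19.8, 13.6 and 24.7 TPM and EpiLC libraries 2.41, 2.64 and 2.65 TPM. The lowest ESC library was still far above the highest EpiLC library. This is a 7.82-fold lower level, a log2 fold change of -2.97 (SE 0.23, edgeR adjusted p = 2.14e-04). Among the ESC libraries Tead4 ran in the order 3, 1, 2, the reverse of the fibroblast markers, and without ESC replicate 2 its log2 fold change was -3.17.

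Tead1 (chr7:112679356-112906784) fell with little spread within either group. Its TPM was 57.9, 61.3 and 56.8 in ESCs and 27.8, 26.1 and 23.7 in EpiLCs. The 2.36-fold lower level corresponds to a log2 fold change of -1.24 (SE 0.07, edgeR adjusted p = 9.30e-05), and the value without ESC replicate 2 was -1.21.

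Tead3 (chr17:28331671-28350805) had 9.04, 11.0 and 5.35 TPM in ESCs and 12.8, 13.8 and 12.2 TPM in EpiLCs. The groups did not overlap, but ESC replicates 2 and 3 differed by more than ESC replicate 2 did from any EpiLC library. The log2 fold change of 0.57 did not pass (95% interval -0.02 to 1.16, edgeR adjusted p = 0.101). Leaving out ESC replicate 2 gave 0.80 and passed (edgeR adjusted p = 0.0247), and leaving out ESC replicate 3 gave 0.33 and did not (edgeR adjusted p = 0.0869).

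The makeup of the TEAD transcripts differed between the groups. Summed over the 4 genes, TEAD TPM was 198 ± 22.6 in ESCs and 234 ± 10.4 in EpiLCs. Tead2 made up 60.9%, 51.3% and 55.8% of that sum in the ESC libraries and 80.7%, 81.9% and 84.2% in the EpiLC libraries. Over the same libraries the Tead1 share went from 29.9% ± 4.40 to 11.1% ± 1.39 and that of Tead4 from 9.73% ± 2.55 to 1.10% ± 0.0237 (SD, n = 3). The Tead3 share was 4.35% ± 1.77 and 5.54% ± 0.488, and its groups overlapped (two-sided exact permutation test, p = 0.400). For the sum and the 3 other shares the groups did not overlap, and the exact permutation test gave p = 0.10, the smallest that 3 libraries against 3 allow. Computed from CPM (counts scaled to library size, not corrected for transcript length), the difference of the Tead1 share was -28.5 percentage points in place of -18.8 and that of the Tead4 share -5.51 in place of -8.64. Shares are not independent of each other, since they sum to 100 in each library.

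Yap1 and Wwtr1, the paralogous coactivators that bind TEADs, moved in opposite directions. Yap1 (chr9:7931999-8004638) had 122, 110 and 99.5 TPM in ESCs and 140, 139 and 135 TPM in EpiLCs. Each EpiLC library was above each ESC library, by a small margin, and the log2 fold change was 0.27 (SE 0.08, edgeR adjusted p = 0.0255). That call was lost without EpiLC replicate 1 (0.26, edgeR adjusted p = 0.0887), without EpiLC replicate 2 (0.28, edgeR adjusted p = 0.0652) and without EpiLC replicate 3 (0.28, edgeR adjusted p = 0.0601).

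Wwtr1 (chr3:57455644-57575910) had 27.8, 39.2 and 23.6 TPM in ESCs and 15.7, 17.5 and 14 TPM in EpiLCs. All 3 EpiLC libraries were below all ESC libraries, and ESC replicate 2 was the highest. The level was 1.99-fold lower, with a log2 fold change of -0.99 (SE 0.18, edgeR adjusted p = 0.00538). Without ESC replicate 2 it was -0.76 (edgeR adjusted p = 0.00228). The part of the fibroblast markers, which were highest in the same library, was not tested. Yap1 made up 78.7% ± 4.34 of the summed Yap1 and Wwtr1 TPM in ESCs and 89.8% ± 0.931 in EpiLCs, without overlap (exact permutation p = 0.10, the smallest possible), while the sum itself overlapped at 141 ± 15.2 and 154 ± 3.95 TPM (exact permutation p = 0.200).

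The LATS kinases, which phosphorylate YAP and TAZ, did not pass the test. Lats1 (chr10:7681200-7716461) was at 12.9, 13.9 and 12.1 TPM in ESCs and 14, 13.5 and 13.1 TPM in EpiLCs, so the libraries were interleaved. The 95% interval of its log2 fold change ran from -0.17 to 0.20 around 0.01 (edgeR adjusted p = 0.906).

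Lats2 (chr14:57689662-57746212) had 9.12, 15.5 and 5.05 TPM in ESCs and 5.25, 4.10 and 4.63 TPM in EpiLCs. ESC replicate 3 lay below EpiLC replicate 1, and ESC replicate 2 was the highest of the 6 libraries. The log2 fold change was -1.09, with a 95% interval of -2.01 to -0.16 (edgeR adjusted p = 0.0585), and DESeq2 called the same value (adjusted p = 0.010). Without ESC replicate 2 it was -0.59 (edgeR adjusted p = 0.118) and without ESC replicate 3 it was -1.42 (edgeR adjusted p = 0.00359). The order 2, 1, 3 of the ESC libraries was that of the fibroblast markers, and their part in the Lats2 level was not tested. Tead1, Tead3, Wwtr1, Lats1, Lats2 and Vgll4 shared this order, 6 of the 10 genes, as did 26.0% of all tested genes.

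Amotl2 (chr9:102717091-102733418), a motin that binds YAP and holds it at junctions and on actin, had 102, 100 and 74.5 TPM in ESCs and 70.9, 71.6 and 62.5 TPM in EpiLCs. ESC replicate 3 was close to the EpiLC libraries but above them. The log2 fold change was -0.49 (SE 0.12, edgeR adjusted p = 0.0169), and the call was lost without EpiLC replicate 1 (-0.51, edgeR adjusted p = 0.0503) and without EpiLC replicate 3 (-0.43, edgeR adjusted p = 0.0643). Vgll4 (chr6:114860621-114970007), which competes with YAP for TEAD, had 7.98, 9.60 and 6.05 TPM in ESCs and 4.70, 4.23 and 4.12 TPM in EpiLCs. It was 1.86-fold lower, with a log2 fold change of -0.90 (SE 0.20, edgeR adjusted p = 0.00976) and of -0.73 without ESC replicate 2 (edgeR adjusted p = 0.0143).

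**Figure D2:**
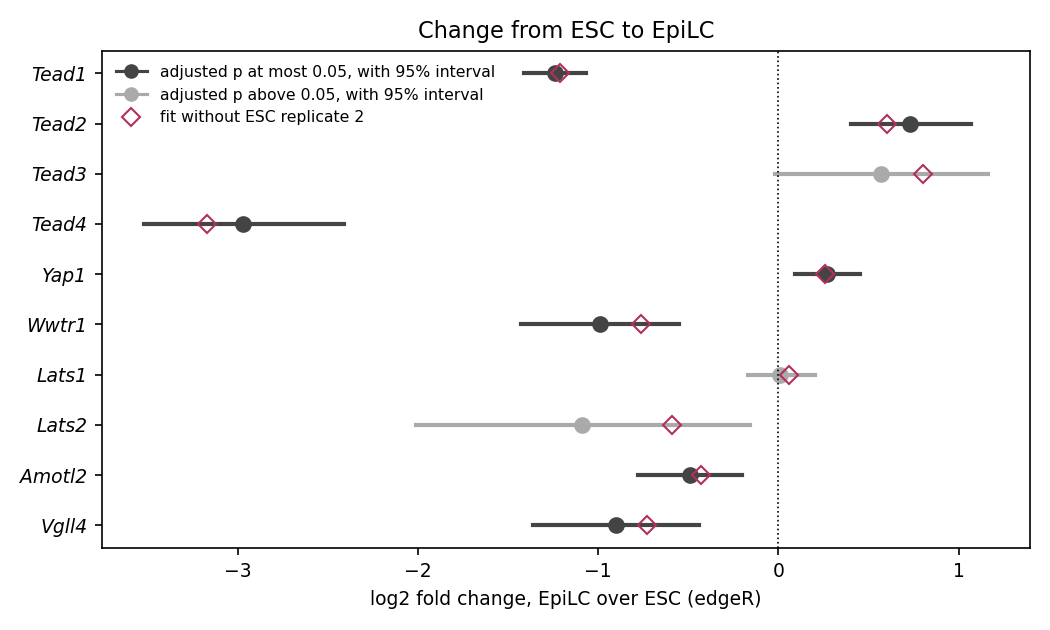
Log2 fold change from ESC to EpiLC of the 10 genes in edgeR, with 95% intervals, dark where the adjusted p was at most 0.05 and grey where it was above, and a diamond for the fit without ESC replicate 2. Tead4 lies farthest from 0 at -2.97, and leaving out ESC replicate 2 moves Lats2 from -1.09 to -0.59 and Tead3 from 0.57 to 0.80.

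By mean TPM the order in ESCs was Tead2 (112), Yap1 (111), Amotl2 (92.4), Tead1 (58.7), Wwtr1 (30.2), Tead4 (19.4), Lats1 (13.0), Lats2 (9.90), Tead3 (8.47) and Vgll4 (7.88). The ranges of neighbours overlapped among the first 3 and again from Wwtr1 downward, while Tead1 stood apart from both neighbours. In EpiLCs Tead2 (192), Yap1 (138), Amotl2 (68.3) and Tead1 (25.8) were each separated from the next gene in all 3 libraries. Wwtr1 (15.7), Lats1 (13.6) and Tead3 (12.9) overlapped in turn, as did Lats2 (4.66) and Vgll4 (4.35), and Tead4 (2.57) was the lowest of the 10, although by its mean it ranked above both LATS genes in ESCs.

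Genes with a profile close to that of Tead2 or Tead4 were sought among 9207 genes with a mean CPM of at least 10, by the Euclidean distance of their centred log2 CPM over the 6 libraries. Tead2 was closest to Pclaf, a PCNA-binding factor (distance 0.140), Zfp422, a zinc finger protein (0.157), and Plekha5, a pleckstrin homology domain protein (0.158). Pclaf had 79.0 ± 13.8 TPM in ESCs and 137 ± 12.2 TPM in EpiLCs. Tead4 was closest to Pim1, a serine/threonine kinase (distance 0.280), Mov10, an RNA helicase (0.454), and Rreb1, a zinc finger transcription factor (0.486). Pim1 went from 87.9 ± 15.5 to 12.1 ± 1.15 TPM. Since the libraries fall into 2 groups, any gene with a like change between them scores close.

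TEAD factors bind the core GGAATG, read as CATTCC on the other strand, and the windows from 250 bases before to 50 bases after each RefSeq start were searched for these letters on both strands (GRCm38.p6, the same coordinates as mm10). Of 32851 windows of all genes, 14.7% held the letters. A window was on file for 8 of the 10 genes, and not for Tead1 and Tead4. In 6 of the 8 (Tead3, Yap1, Wwtr1, Lats2, Amotl2 and Vgll4) at least 1 window held the core, and in Tead2 and Lats1 none did. Tead3 has 3 windows and Wwtr1 and Lats2 have 2 each, which gives these genes more chances than a single window, so the count of genes cannot be set directly against the share of windows. In Lats2 1 of the 2 windows held the core. The stretches below show where the core lies in promoters of 5 of the 10 genes and of Cyr61, a widely used YAP/TEAD target (Ccn1 in RefSeq), 5′ to 3′ on the gene's strand with the core in capitals. A match is a description of the letters, not evidence of binding.
Yap1, chr9:8004685-8004784, minus strand: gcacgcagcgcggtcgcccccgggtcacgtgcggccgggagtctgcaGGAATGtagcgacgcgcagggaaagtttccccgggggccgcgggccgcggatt
Wwtr1, chr3:57575994-57576093, minus strand: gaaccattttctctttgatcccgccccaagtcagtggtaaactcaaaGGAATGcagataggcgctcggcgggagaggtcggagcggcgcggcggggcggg
Vgll4, chr6:114969233-114969332, minus strand: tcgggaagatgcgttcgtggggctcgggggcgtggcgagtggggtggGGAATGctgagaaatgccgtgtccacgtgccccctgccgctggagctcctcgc
Tead3, chr17:28350935-28351034, minus strand: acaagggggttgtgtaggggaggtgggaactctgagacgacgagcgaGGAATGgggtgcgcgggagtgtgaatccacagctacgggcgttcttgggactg
Amotl2, chr9:102717727-102717756, plus strand: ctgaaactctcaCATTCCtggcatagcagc
Cyr61, chr3:145650036-145650135, minus strand: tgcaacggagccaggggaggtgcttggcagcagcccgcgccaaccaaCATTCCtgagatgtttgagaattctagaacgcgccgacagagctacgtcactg

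The printed core lies 141 bases before the start in Yap1, 82 in Vgll4, 182 in Tead3, 65 in Amotl2 and 103 in Cyr61. Another Tead3 window holds 3 further cores, at 123 and 114 bases before its start and 3 bases after it, all inside an exon. In Wwtr1 it lies 136 or 170 bases before, depending on the start used, and in Lats2 it falls 5 bases after the start, inside an exon. The Amotl2 core also overlaps an annotated exon, and the other stretches printed lie outside exons. Genes with the core moved in both directions, with Yap1 higher and Wwtr1, Vgll4 and Amotl2 lower in EpiLCs.

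Upstream of LATS, the core kinase list held 11 genes, of which 2 rose, 2 fell and 7 did not pass, 18.2% in each direction beside 22.6% higher and 22.8% lower over all genes tested, with a median log2 fold change of -0.02 (all genes tested -0.0017). Taok2, a kinase that activates MST, rose from 25.9 ± 2.14 to 50.4 ± 2.41 TPM (log2 fold change 0.90, edgeR adjusted p = 2.29e-04), and its paralogue Taok3 fell from 11.5 ± 0.894 to 5.70 ± 0.280 TPM (-1.07, edgeR adjusted p = 4.96e-04). Stk38 (NDR1), a kinase related to LATS, fell by 0.86 on the log2 scale. Stk4 (MST1) rose by 0.17 (edgeR adjusted p = 0.0424), a call that was lost when any 1 library other than ESC replicate 3 was left out (edgeR adjusted p from 0.0666 to 0.147), while Stk3 (MST2) at -0.25 (edgeR adjusted p = 0.108) and the scaffold Sav1 at 0.06 (edgeR adjusted p = 0.695) did not pass.

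Of 22 regulators that act on the kinases or on YAP at junctions, 7 rose (31.8%, beside 22.6% of all genes tested), 5 fell (22.7%, beside 22.8%) and 10 did not pass, with a median log2 fold change of 0.18. The share that fell is at the background. Amot, the founding motin, had 122, 122 and 90.9 TPM in ESCs and 13.1, 12.2 and 14.4 TPM in EpiLCs. All EpiLC libraries were far below all ESC libraries, with a log2 fold change of -3.12 (SE 0.14, edgeR adjusted p = 4.00e-05) and of -3.06 without ESC replicate 2. Fat4, an atypical cadherin, was at 1.33, 7.97 and 0.680 TPM in ESCs and at most 0.300 TPM in EpiLCs (log2 fold change -4.06, edgeR adjusted p = 0.0155, and -2.35 without ESC replicate 2). Its call was lost without EpiLC replicate 1 (-4.09, edgeR adjusted p = 0.0593) and without EpiLC replicate 3 (-3.74, edgeR adjusted p = 0.0601). Frmd6 (Willin) fell by 1.00 (edgeR adjusted p = 0.0276, lost without ESC replicate 1 and without each EpiLC replicate, at most 0.095, and -0.64 without ESC replicate 2) and Nf2 (Merlin), an activator of the kinases, by 0.53 (edgeR adjusted p = 0.00403). The largest rises were those of the polarity genes Crb3 (1.19, edgeR adjusted p = 0.0204) and Pard3 (0.81, edgeR adjusted p = 9.02e-04) and of Limd1 (0.68, edgeR adjusted p = 0.00529), an adaptor that binds LATS. The Crb3 call was lost without ESC replicate 1 (1.08), EpiLC replicate 1 (1.17) or EpiLC replicate 2 (1.08), with edgeR adjusted p from 0.0650 to 0.0710. Without EpiLC replicate 1 or 2, 4 of the 22 rose, beside 14.5% and 15.8% of all genes tested in those fits, and without EpiLC replicate 1 or 3, 3 fell, beside 14.2% and 17.2%.

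The motins were also compared as a family, a comparison added after these values were seen. Summed Amot, Amotl1 and Amotl2 TPM was 217 ± 36.2 in ESCs and 99.8 ± 5.97 in EpiLCs. Amot made up 51.3% ± 0.470 of it in ESCs and 13.3% ± 1.91 in EpiLCs, and Amotl2 42.6% ± 0.398 and 68.4% ± 1.28, so that Amotl2 was the leading motin in EpiLCs although its own level fell. The groups did not overlap in any of these (exact permutation p = 0.10, the smallest possible). Amotl1 at 13.3 ± 3.07 and 18.3 ± 1.95 TPM did not pass (log2 fold change 0.41, edgeR adjusted p = 0.0892). It passed without ESC replicate 2 (0.54, edgeR adjusted p = 0.0366) and with the replicate numbers as a block (0.43, edgeR adjusted p = 0.0269).

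**Figure D3:**
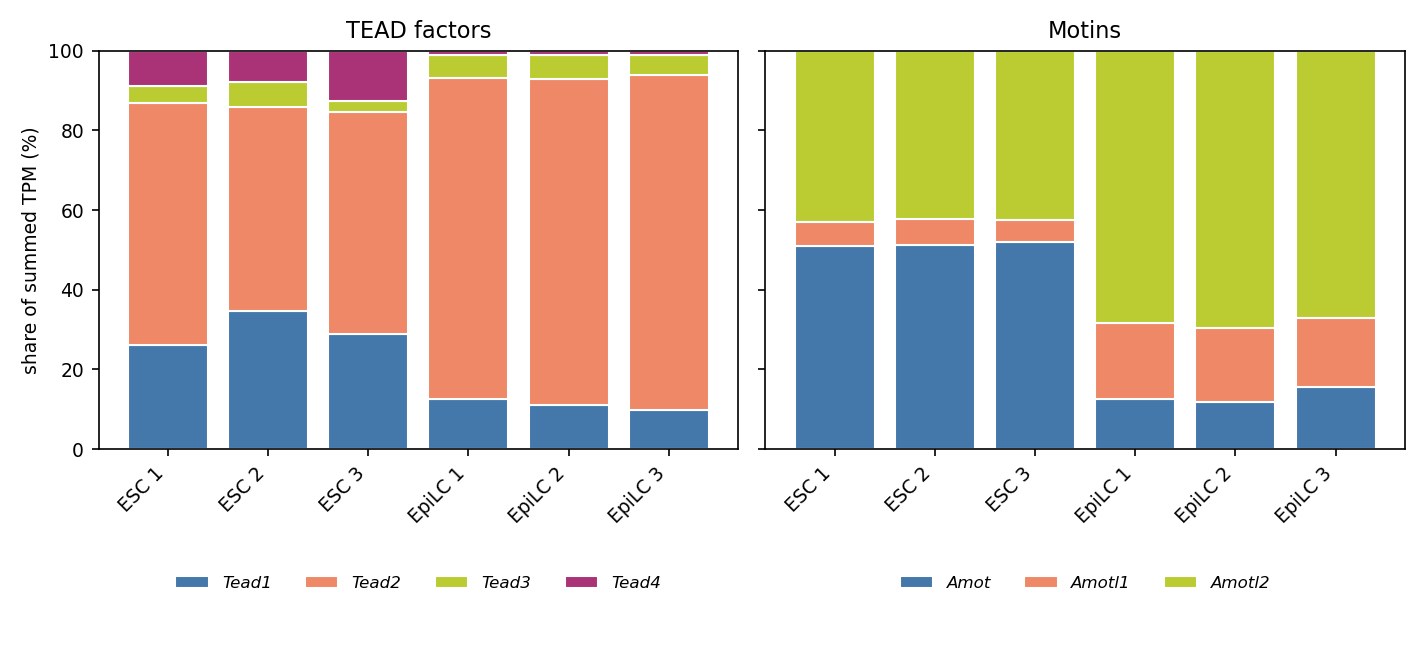
Share of summed TPM (%) held by each TEAD factor (left) and each motin (right) in each of the 6 libraries. Tead2 covers between 51.3% and 60.9% of the TEAD sum in ESCs and between 80.7% and 84.2% in EpiLCs, and Amot covers between 50.9% and 51.9% and between 11.9% and 15.5% of the motin sum.

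Of 13 genes that hold or degrade YAP and TAZ or bind TEADs, 11 could be tested, 2 rose (18.2%, beside 22.6% of all genes tested) and 9 did not pass, with a median log2 fold change of 0.06. The risers were Btrc, a ubiquitin ligase subunit that recognises phosphorylated YAP (0.27, edgeR adjusted p = 0.0387), and Ywhab, a 14-3-3 protein (0.23, edgeR adjusted p = 0.0487). The Btrc call was lost when any 1 library was left out (edgeR adjusted p from 0.0506 to 0.108), and the Ywhab call when any but ESC replicate 2 was (from 0.0617 to 0.148). With all 6 libraries none fell with edgeR (0 also at an unadjusted p of 0.05) or with DESeq2 (0, and 1 at an unadjusted p of 0.05). Without ESC replicate 2 the 14-3-3 gene Ywhae fell (-0.15, edgeR adjusted p = 0.0454). Vgll3, a TEAD cofactor, was at 7.73, 27.5 and 2.79 TPM in ESCs and 5.22, 5.32 and 3.10 TPM in EpiLCs and did not pass (log2 fold change -1.51, edgeR adjusted p = 0.136), although it did without ESC replicate 3 (-1.98, edgeR adjusted p = 0.0210) and was at -0.25 without ESC replicate 2. Vgll1 and Vgll2 did not pass the filter on low counts with all 6 libraries. Vgll2 was at 0.06, 0.08 and 0.05 TPM in ESCs and 1.21, 0.240 and 0.780 TPM in EpiLCs, which rest on 1 read in each ESC library and 32, 6 and 18 reads in the EpiLC libraries, so no fold is given. It passed the filter in the fit without ESC replicate 2 only through the EpiLC libraries. Vgll2 is part of the 3 cofactors called higher in that fit, beside 24.3% of all genes tested.

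Among 20 genes commonly used as YAP/TEAD targets, 12 fell, 3 rose and 5 did not pass, and the median log2 fold change was -1.66, beside 22.8% lower, 22.6% higher and a median of -0.0017 over all genes tested. Cyr61, a secreted matricellular protein, had 197, 179 and 111 TPM in ESCs and 57.0, 63.9 and 46.5 TPM in EpiLCs (log2 fold change -1.59, edgeR adjusted p = 0.00158, and -1.51 without ESC replicate 2). Its ESC libraries were all above its EpiLC libraries, and ESC replicate 2 was not the highest. The largest falls were those of Ccdc80, a matrix protein (-6.31, edgeR adjusted p = 0.00679), Rbms3, an RNA-binding protein (-3.26, edgeR adjusted p = 0.0150), and Foxf2, a mesenchymal forkhead factor (-2.87, edgeR adjusted p = 0.0122). Foxf2 rests on 13, 43 and 25 counts in ESCs and 9, 4 and 5 in EpiLCs, so it passed the filter on low counts only through the ESC libraries, where it was high, and it is not tested where at least 10 counts are asked of every library. Without ESC replicate 2 the values of Ccdc80, Rbms3 and Foxf2 were -4.57, -2.18 and -2.06, and Myof, a membrane repair protein, was at -2.14. The risers were Fjx1 (0.88, edgeR adjusted p = 0.0272), the kinase Nuak2 (0.69, edgeR adjusted p = 0.0356) and the phosphatase Ptpn14 (0.55, edgeR adjusted p = 0.0453), which binds YAP and is also counted among the regulators. The Nuak2 call was lost in 4 of the fits that left out 1 library (edgeR adjusted p up to 0.135). That of Ptpn14 was lost in 3 (up to 0.134) and that of Fjx1 in 2 (up to 0.0910). No riser was called without EpiLC replicate 1 (0 of 20, beside 14.5% of all genes) and 1 was without EpiLC replicate 2 (beside 15.8%). The number of falls was 14 with DESeq2, 16 without ESC replicate 3 and 9 without any 1 EpiLC replicate. Over all genes the share lower was 19.6% with DESeq2, 23.2% without ESC replicate 3 and between 14.2% and 17.2% without an EpiLC replicate. Of the 12 falls, 4 lost their call in at least 1 fit that left out a library. Rbms3 was lost without EpiLC replicate 1 or 3 (edgeR adjusted p = 0.0591 for both) and Foxf2 without EpiLC replicate 2 (0.0504). The receptor kinase Axl (-2.24) and the ligand Tgfb2 (-2.37) were lost when any 1 library other than ESC replicate 3 was left out (edgeR adjusted p from 0.0604 to 0.130 and from 0.0539 to 0.0861), with -1.13 and -1.51 without ESC replicate 2.

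Of the 20 targets, 14 were highest in ESC replicate 2, as the fibroblast markers were. The ESC order 2, 1, 3 was held by 11 of the 20, beside 26.0% of all tested genes, and also by 12 of the 22 regulators. Ctgf, with Cyr61 the best known YAP/TEAD target, had 78.9, 260 and 69.5 TPM in ESCs and 59.4, 59.8 and 60.2 TPM in EpiLCs. ESC replicate 2 stood apart from the other 5 libraries, and the log2 fold change of -1.23 did not pass (edgeR adjusted p = 0.0760), whereas without that library it was -0.37 and passed (edgeR adjusted p = 0.00771), as it did without ESC replicate 3 (-1.54, edgeR adjusted p = 0.0277). Ankrd1, a muscle ankyrin repeat protein, had 5.58, 21.0 and 2.32 TPM in ESCs and 3.55, 4.32 and 2.33 TPM in EpiLCs, and did not pass with or without ESC replicate 2 (-1.53 and -0.25, edgeR adjusted p = 0.132 and 0.642), but did without ESC replicate 3 (-1.99, edgeR adjusted p = 0.0256) and with DESeq2 on all 6 libraries (-1.55, adjusted p = 0.0476). Ccdc80 had 24.5, 129 and 7.55 TPM in ESCs and between 0.280 and 1.39 TPM in EpiLCs, the order of the collagens. Without ESC replicate 2, 11 of the 20 fell and 2 rose, with a median of -1.08, beside 24.5% lower and 24.3% higher over all genes tested. The part of the fibroblast markers in the remaining differences was not tested.

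**Figure D4:**
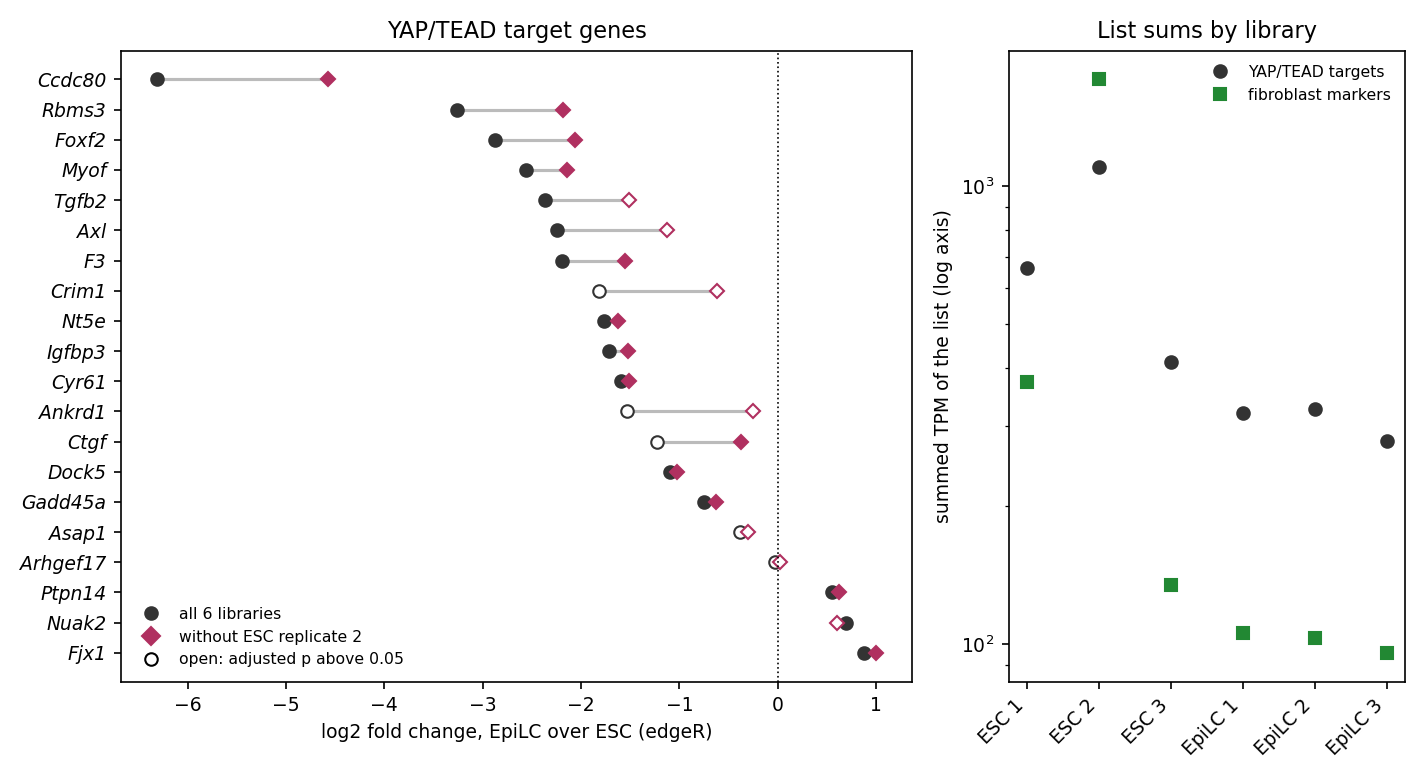
Left, log2 fold change from ESC to EpiLC of 20 YAP/TEAD target genes with all 6 libraries (circles) and without ESC replicate 2 (diamonds), open where the edgeR adjusted p was above 0.05. Right, summed TPM (log axis) of the target list and of 15 fibroblast markers in each library, where ESC replicate 2 is highest for both and reaches 1709 for the fibroblast markers.

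Trophectoderm markers were read beside Tead4. Of 9 genes 8 could be tested, 5 fell, 1 rose and 2 did not pass (62.5% lower and 12.5% higher, beside 22.8% and 22.6% of all genes tested), with a median log2 fold change of -1.28, and 3 fell when ESC replicate 1 or any 1 EpiLC replicate was left out (all genes lower in those fits, 14.2% to 19.4%). Tfap2c, also expressed in ESCs and germ cells, fell from 36.5 ± 11.3 to 2.42 ± 0.377 TPM (-3.96, edgeR adjusted p = 1.40e-04). Gata3 fell from 3.13 ± 1.70 to 0.273 ± 0.095 TPM (-3.57, edgeR adjusted p = 0.00187). Gata3 rests on 164, 74 and 67 counts in ESCs and 14, 9 and 17 in EpiLCs. It thus passed the filter on low counts only through the ESC libraries, where it was high. It is not tested where at least 10 counts are asked of every library. Eomes, which the study counts among early primitive streak markers, fell from 70.2 ± 38.7 to 7.30 ± 2.67 TPM (-3.32, edgeR adjusted p = 0.00137). Krt7, a keratin, rose from 1.78 ± 0.433 to 6.48 ± 0.824 TPM (1.80, edgeR adjusted p = 0.00171). Cdx2, the defining trophectoderm factor, was at 7.24, 4.95 and 1.79 TPM in ESCs and 1.61, 0.810 and 7.63 TPM in EpiLCs, overlapped between the groups and did not pass (edgeR adjusted p = 0.653). Elf5, another defining factor, was at most 0.0700 TPM in each library and was not tested.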

How the data were processed

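Per the labels and the study's methods, the authors trimmed adapters from 76 nt single-end, strand-specific reads with cutadapt 1.16, mapped them with STAR 2.5.2a and quantified mm10 RefSeq genes with RSEM 1.3.0. The deposited values are unnormalized expected counts, in which RSEM shares out multiply mapping reads among genes, and TPM, scaled for length and library. The expected counts of the 10 genes were whole numbers in all 6 libraries. Expected counts were rounded, filtered with filterByExpr (14468 of 24736 genes), TMM-normalized (factors 0.979 to 1.02) and tested with edgeR 4.0.16 (quasi-likelihood, R 4.3.3), with Benjamini-Hochberg adjustment over all genes tested and a threshold of 0.05. Intervals are 95%. Shares and sums of TPM were compared with a two-sided exact permutation test (scipy 1.17.1).

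DESeq2 1.42.0, limma 3.58.1 on log2(TPM + 1) or log2(TPM + 0.1), other normalizations and filters, the replicate block and leaving out each library were the alternatives, and the script was tested on simulated data. Named were the 10 genes, the 3 largest rises and falls past the threshold in each list, and a fixed set of known pathway genes and targets, and other genes named as not passing or not tested are given with their values. The 10 genes and the lists were chosen with earlier results of these data known. A count of 3 corresponds to between 0.0855 and 0.177 CPM, and intervals cover no error from mapping. Positions are those of GRCm38.p6, and promoter sequences are from RefSeq.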

Additional observations from a re-analysis of the deposited data

How the results depend on the processing

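Of the recomputed log2 fold changes of the 10 genes, 129 kept their direction and side of the threshold, 5 lost their call (Yap1 and Amotl2), 3 gained one (Lats2 and Tead3) and 3 turned direction (Lats1, near 0). Leaving out 1 library at a time gave 1 to 3 genes higher. It gave ranges of -0.61 to -0.42 for Amotl2, -0.02 to 0.06 for Lats1, -1.42 to -0.59 for Lats2, 0.33 to 0.80 for Tead3 and 0.21 to 0.33 for Yap1, and of -0.05 to 0.14 for Sav1. DESeq2 called Lats2 at -1.09 (adjusted p = 0.010). Leave-one-out counts ran from 1 to 2 kinase genes higher, 4 to 10 regulators higher and 3 to 5 lower. For cofactors they were 0 to 3 higher and 0 to 1 lower, and for targets 0 to 2 higher and 9 to 16 lower. Of the trophectoderm markers 3 to 6 were lower. The 3 cofactors higher, in the fit without ESC replicate 2, include Vgll2, which passed the filter there only through the EpiLC libraries. Over all genes tested these leave-one-out fits called 14.5% to 24.3% higher and 14.2% to 24.5% lower. With DESeq2 size factors 1 kinase gene and 1 cofactor were higher (beside 22.0% of all genes tested), and without the filter 1 kinase gene (beside 17.3%). With upper-quartile normalization or limma on log2(TPM + 0.1) 4 cofactors were higher (beside 23.9% and 26.4%). With at least 10 counts in every library, where Gata3 is not tested, 3 trophectoderm markers were lower (beside 22.1% of all genes tested). Shares computed from CPM, which ignore transcript length, moved the TEAD differences to -28.5 (Tead1), 31.7 (Tead2) and -5.51 (Tead4) percentage points, from -18.8, 26.3 and -8.64. The cause of the other changes was not tested.

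Same-numbered ESC and EpiLC replicates correlated at 0.01, 0.19 and 0.17 in their deviations, and differently numbered ones at -0.21 to 0.08. The values of replicates 2 and 3 were thus the highest of all. ESC replicate 1 correlated more with EpiLC replicate 3 (0.08) than with EpiLC replicate 1, so the numbers were not taken to pair the samples. With the replicate block 2 of the 10 genes were higher and 5 lower, and 1 kinase gene and 0 cofactors were higher. Over all genes tested that fit called 20.6% higher and 21.5% lower.

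ESC replicate 2 had the fewest reads and the most fibroblast marker RNA, and 3 libraries a group cannot separate these. Foxf2, Vgll2 and Elf5 rest on few reads, as does Gata3 in EpiLCs.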

Other observations

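Primitive endoderm markers, which belong to the other extra-embryonic lineage of the early embryo, were read as a further cell type that ESC cultures can hold. Of 8 genes 5 fell in EpiLCs (62.5%, beside 22.8% of all genes tested) and 3 did not pass, with a median log2 fold change of -2.50. Gata6 fell from 10.1 ± 4.24 to 0.420 ± 0.0872 TPM (-4.63, edgeR adjusted p = 2.14e-04), Pdgfra from 10.2 ± 5.70 to 0.677 ± 0.140 TPM (-3.91, edgeR adjusted p = 8.20e-04) and Gata4 from 18.6 ± 6.04 to 2.09 ± 0.401 TPM (-3.20, edgeR adjusted p = 2.46e-04). With edgeR no marker rose (0 also at an unadjusted p of 0.05, and 0 with DESeq2). Sparc, which fibroblasts also express, was at 216, 584 and 134 TPM in ESCs and between 122 and 152 TPM in EpiLCs and did not pass (edgeR adjusted p = 0.0848). Of the 8 genes 3 (Sox17, Sox7 and Sparc) were highest in ESC replicate 2, where all 15 fibroblast markers were highest. The part of these cells in the levels of the Hippo genes was not tested.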
